A study of Mus musculus with 18 samples.

Results

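The comparison described here set the endothelial cells (ECs) of implanted breast tumours, which form the inner wall of their vessels, against ECs of the normal mammary fat pad, both collected from female mice of the FVB strain 3 h after an injection of phosphate-buffered saline (PBS). It was made from all libraries of these 2 groups, 3 per group and 6 of the 18 libraries of the series. The implanted tumours were grown from tumour cells of MMTV-PyMT mice, in which a viral promoter drives the polyoma middle T oncogene in the mammary epithelium. Those cells were expanded in culture, mixed with Matrigel and placed in the fat pad of wild-type FVB females 8 to 9 weeks old. The age of the mice that gave normal fat pad and the interval between implantation and injection for these libraries are not given in the sources used here. The labels give a wild-type genotype for both groups, so the transgene was carried by the implanted tumour cells and not by the host. In the rest of the series, ECs of spontaneous MMTV-PyMT tumours and cGAMP, an agonist of the DNA sensor adaptor STING, were studied with the same number of libraries per group. The question addressed was what ECs of an implanted tumour express differently from resting ECs of the same site before any agonist is given.

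A resting fat-pad capillary is quiescent, handles fatty acids for the surrounding adipocytes, and carries arterial and venous identities set by Notch signalling, NR2F2 and blood flow. In a growing tumour, VEGF drives ECs to sprout. Leading tip cells express a characteristic set of receptors, secreted factors and matrix proteins, and stalk cells divide behind them and lay down a new basement membrane. ECs also answer interferon-gamma released by lymphocytes with chemokines that attract T cells and with antigen-presenting molecules.

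Tissue was dissociated, enriched with CD31 beads and sorted for live, CD45-negative, CD31-positive cells, and the RNA was sequenced in bulk. Values are FPKM (fragments per kilobase of a gene, relative to the size of the library), and differences are given as log2 changes of FPKM + 1, implanted minus normal, a scale that understates differences of weakly expressed genes. A number alone in brackets after FPKM values is this log2 change. Whole reads recovered from the FPKM values numbered 9184556 to 10507680 per library, a 1.14-fold range, and for a gene of 1 kb a single read amounted to 0.0843 to 0.1129 FPKM. The columns of the normal libraries name the treatment but no tissue, and were taken as normal fat pad since the other two tissues are named in theirs. A figure legend gives 3 mice per group from 3 independent experiments, and since it is not stated which library came from which experiment, no value within an experiment could be given. The p-values and SEs therefore measure the spread between libraries of a group, estimated over all 18 libraries of the series. Across genes, Pearson's r of log2(FPKM + 1) was 0.983 to 0.989 between libraries of a group and 0.875 to 0.896 between libraries of different groups.

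The sort was first checked against cell type markers. Pecam1, which encodes CD31, stood at 258, 291 and 292 FPKM in the normal libraries and at 237, 268 and 221 FPKM in the implanted libraries. The ranges overlapped and the change did not pass the test (log2 change -0.21, SE 0.15, limma adjusted p = 0.264), although it passed as a decrease of 0.40 on the log2 scale when libraries were scaled by total reads. Cdh5, the adhesion protein VE-cadherin of EC junctions, rose from 291 ± 25.7 to 444 ± 55.7 FPKM (mean ± SD, n = 3 in each group, as for all means below) (log2 change 0.60, SE 0.17, limma adjusted p = 0.00879), and its change of 0.36 under quantile normalization no longer passed. Summed over the 16 pan-endothelial genes of the list, FPKM were 1650 to 1870 in normal and 1740 to 2210 in implanted ECs, with 1 member called higher and 2 lower. Ptprc, which encodes the leukocyte protein CD45 that the gate removed, stood at 3.91, 1.98 and 6.31 FPKM in the normal libraries and at 0.964, 0.37 and 1.09 FPKM in the implanted libraries. It was thus low in both groups, and its call (log2 change -1.42, SE 0.57, limma adjusted p = 0.0496) was lost in 9 of 14 alternatives, among them each of 5 fits that left out 1 library. The log2 change was -1.49 without implanted library 1, -1.23 without implanted library 2, -1.53 without implanted library 3, -1.39 without normal library 1 and -1.11 without normal library 3.

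Transcripts of other cell types were present in both groups and differed between them. Of the 14 markers of mural cells, the pericytes and smooth muscle cells that wrap vessels, 10 were called lower and 0 higher, and their summed FPKM were 1230 to 1380 in normal and 312 to 363 in implanted ECs. The smooth muscle myosin Myh11 fell from 79.3 ± 8.61 to 3.62 ± 0.526 FPKM (log2 change -4.12, SE 0.17, limma adjusted p = 1.55e-10) and smooth muscle actin, Acta2, from 321 ± 14.4 to 41.3 ± 4.89 FPKM (-2.93). The pericyte genes Rgs5 and Pdgfrb fell less far, by 1.81 and 1.08 on the log2 scale. Without the fold limit 12 of the 14 mural markers passed as lower and 1 as higher, so the markers did not all fall. Of the 26 markers of mammary and tumour epithelium, 9 were called higher and 4 lower, and the sums were 794 to 1140 FPKM in normal and 1820 to 2490 FPKM in implanted ECs. The called epithelial genes did not move as a block. Lcn2 (42.6 ± 2.51 to 544 ± 107 FPKM) and the milk protein genes Csn3 (49.6 ± 11.8 to 410 ± 61.7 FPKM) and Wap rose by 3.62, 3.04 and 4.10 on the log2 scale. The 4 called lower were Csn1s2a (-3.56), another milk protein gene, Wfdc2 (-2.31), the basal keratin Krt5 (33.2 ± 2.59 to 9.04 ± 3.3 FPKM, -1.81) and the keratin Krt19 (-1.27). The general epithelial markers differed less, with Krt8 at 80.8 ± 11.3 FPKM in normal and 108 ± 21.1 FPKM in implanted ECs (log2 change 0.41, SE 0.22, limma adjusted p = 0.136) and Epcam at 60.1 ± 7.46 FPKM in normal and 98.7 ± 14.9 FPKM in implanted ECs (log2 change 0.70, SE 0.19, limma adjusted p = 0.00616). The change of Epcam did not pass under quantile normalization (0.50) or total-read scaling (0.52). Sums for other cell types were smaller, at 164 to 195 FPKM in normal and 261 to 291 FPKM in implanted ECs for fibroblasts. Of the 14 fibroblast markers, however, 6 were called lower and 1 higher, with a median of -0.75. The one called higher was Col1a1, from 33.8 ± 2.75 to 186 ± 16.5 FPKM. For the 4 of 12 adipocyte markers in the table the sums were 57.4 to 66.8 and 46.3 to 74.8 FPKM. They were 174 to 262 and 96.4 to 226 FPKM for 18 of 22 myeloid markers. For 8 of 16 lymphocyte markers they were 18.8 to 47.6 and 7.57 to 11.9 FPKM. For 7 of 13 markers of platelets and red cells they were 52.8 to 75.5 and 10.8 to 22.3 FPKM. The other markers of these lists are not in the table and are missing from the sums. In bulk RNA, fewer cells of a type and less RNA per cell cannot be told apart. The part of these transcripts in the results below was not tested, and their values are given beside some of the genes they move with.

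**Figure D1:**
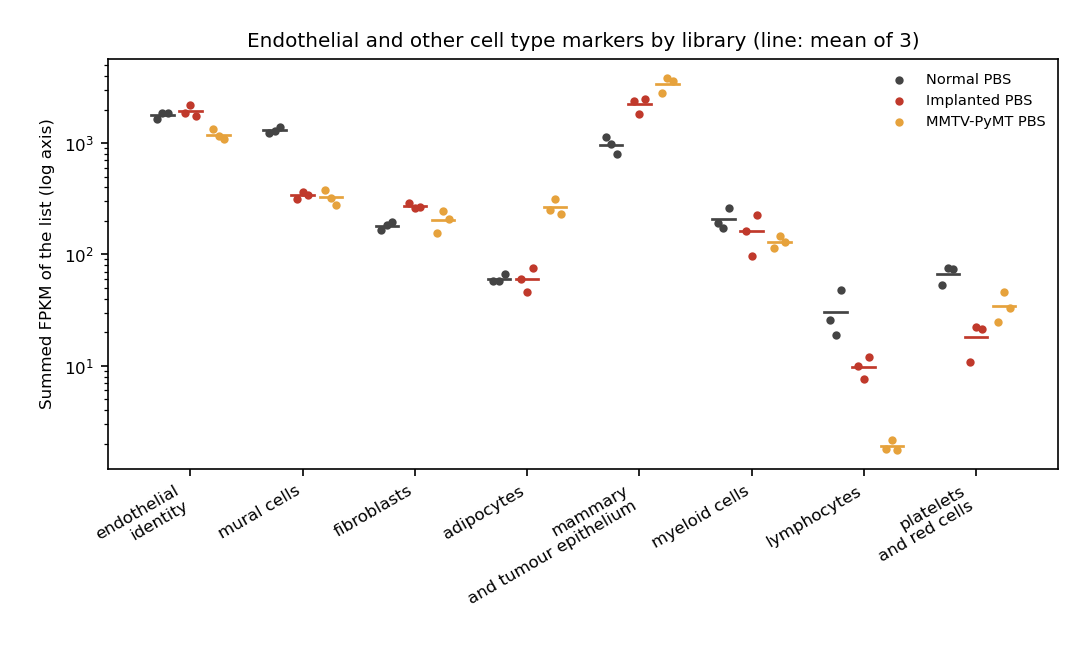
Summed FPKM (log axis) of the pan-endothelial markers and of the markers of 7 other cell types, with each point a library of normal, implanted or MMTV-PyMT ECs under PBS (3 per group). The mural sums of the implanted libraries (312 to 363) lay below all normal sums (1230 to 1380), and their epithelial sums (1820 to 2490) lay above all normal sums (794 to 1140).

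Of 13983 genes tested, 1602 were called, at an adjusted p under 0.05 (limma, Benjamini-Hochberg) and a log2 change of at least 1 either way. The calls were evenly split. There were 803 genes higher in implanted ECs (5.74% of the genes tested) and 799 lower (5.71%). Among them 735 and 763 were protein-coding. At a log2 change of at least 2, 144 genes were higher and 200 lower, at 3 the counts were 35 and 41, and at 4 they were 4 and 6. Without the limit on the fold, 3499 genes passed as higher (25%) and 3305 as lower (23.6%). The 3 implanted libraries did not overlap with the 3 normal ones in 4385 genes that were above (31.4%) and 4217 that were below (30.2%). Among the called genes this held for 802 of 803 and 797 of 799, which a call by adjusted p and fold makes likely in itself. The median change of all genes was 0.01 with the scaling of the deposited values, which is to a common median gene. Scaling to equal total reads moved that median to -0.129, so that 613 genes were called higher and 1032 lower, and 37.3% of calls were higher rather than 50.1%. The 10 most abundant genes took 13 to 13.3% of recovered reads in normal and 19.6 to 20.9% in implanted libraries. A single unnamed gene took 6.98 to 7.5% and 12.7 to 13.5%. The part of this difference in the shift was not tested.

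**Figure D2:**
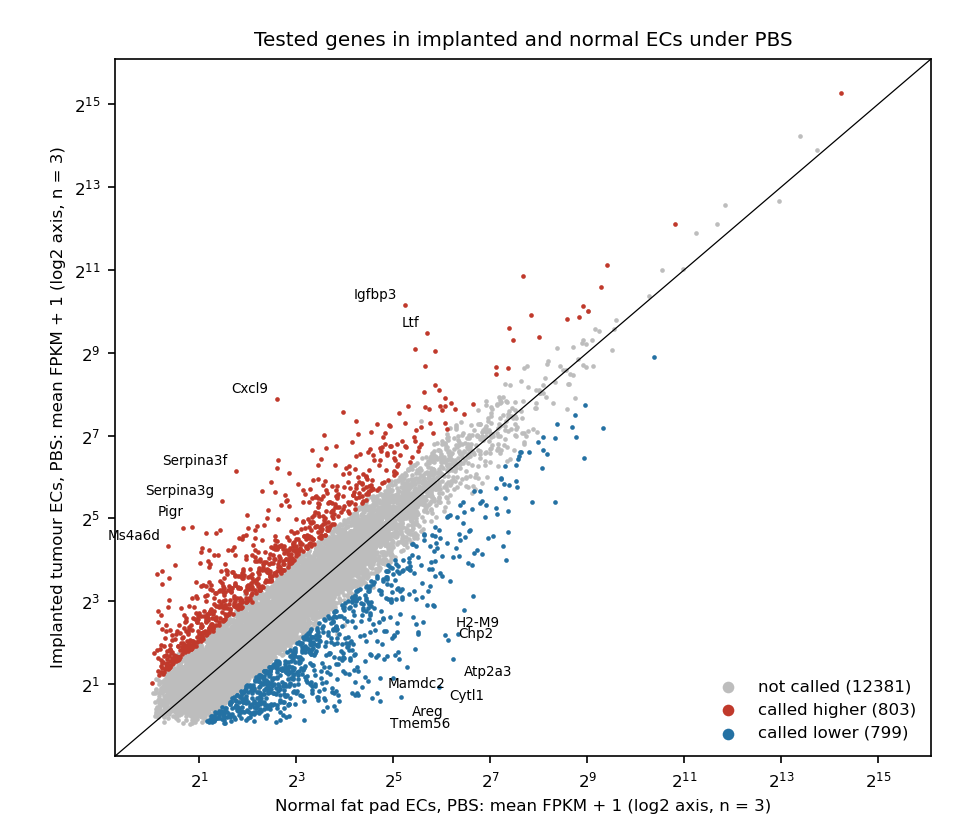
Mean FPKM + 1 of each of the 13983 tested genes in normal ECs (x axis) and implanted ECs (y axis) under PBS, on log2 axes, with called genes in colour and the 7 largest rises and falls of the named genes labelled. Called genes lay on both sides of the line of equality, 803 above and 799 below, and the labelled rises were led by Cxcl9 and Igfbp3.

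Among the largest rises, Cxcl9 (chr5:92321347-92328079, minus strand), an interferon-gamma-induced attractant of T cells, stood at 2.98, 7.35 and 4.9 FPKM in the normal libraries and at 289, 213 and 201 FPKM in the implanted libraries. Every implanted library exceeded every normal one (log2 change 5.32, SE 0.31, limma adjusted p = 2e-09). The largest rises and falls named here were taken from called genes without overlap, so this separation follows from the choice. Igfbp3 (chr11:7206086-7213923, minus strand), a secreted protein that binds insulin-like growth factors, stood at 36.8, 33.6 and 40.4 FPKM in the normal libraries and at 1310, 1210 and 896 FPKM in the implanted libraries (log2 change 4.89, SE 0.22, limma adjusted p = 2.39e-10). Its implanted libraries also lay above its normal ones, as the choice required. Esm1 (chr13:113209659-113218098, plus strand), a proteoglycan of tip cells, stood at 11.3, 9.69 and 11.7 FPKM in the normal libraries and at 136, 107 and 143 FPKM in the implanted libraries (log2 change 3.44, SE 0.29, limma adjusted p = 9.42e-08). Nid2 (chr14:19751265-19811787, plus strand), the basement membrane protein nidogen-2, stood at 13.4, 17.6 and 12.6 FPKM in the normal libraries and at 186, 213 and 169 FPKM in the implanted libraries, and Basp1, a membrane-bound signalling protein, rose from 5.07 ± 0.944 to 73 ± 6.54 FPKM. Both rose by similar amounts (3.62 and 3.61). Egln3, a prolyl hydroxylase that is itself induced by hypoxia, rose from 3.9 ± 0.388 to 49.4 ± 6.78 FPKM, and Cd276, the checkpoint protein B7-H3, from 4.59 ± 1.27 to 57.4 ± 8.86 FPKM. The protease inhibitors Serpina3f and Serpina3g rose from 2.37 ± 0.418 to 69.9 ± 14 FPKM and from 1.77 ± 0.429 to 41.6 ± 9.83 FPKM. They belong to a family of near-identical genes, so that the share of reads given to each is uncertain. Ms4a6d, a membrane protein best known from macrophages, rose from 0.284 ± 0.0517 to 19.2 ± 3.96 FPKM, while the summed myeloid markers were at 174 to 262 FPKM in normal and 96.4 to 226 FPKM in implanted ECs.

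The remainder of the 15 largest rises held the chemokine Cxcl11, described with its relatives, and 4 genes with known expression in epithelium. Ltf, the milk and neutrophil protein lactoferrin, stood at 64.5, 52.1 and 36.4 FPKM in the normal libraries and at 790, 517 and 826 FPKM in the implanted libraries (log2 change 3.78, SE 0.42, limma adjusted p = 2.08e-06). Pigr, which carries antibodies across epithelia, rose from 0.806 ± 0.109 to 26.8 ± 9.45 FPKM, the kallikrein protease Klk10 from 5.18 ± 1.24 to 83.6 ± 16.5 FPKM and the chloride channel regulator Clca2 from 1.2 ± 0.234 to 24.2 ± 2.57 FPKM. The epithelial markers moved with them, at summed FPKM of 794 to 1140 in normal and 1820 to 2490 in implanted ECs, and their part in these rises was not tested. In the MMTV-PyMT libraries the epithelial sums were 2840 to 3840 FPKM. Ltf, Klk10 and Clca2 were lower there than in the implanted libraries, and the source of these transcripts in either tumour was not tested. The log2 differences of implanted against MMTV-PyMT ECs were 2.20, 4.95 and 2.53, while that of Pigr was 0.26 and did not pass.

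Among the largest falls, Cytl1 (chr5:37735519-37739820, plus strand), a small secreted protein placed on the arterial list, stood at 58.6, 60 and 62 FPKM in the normal libraries and at 1.01, 1.28 and 0.383 FPKM in the implanted libraries (log2 change -5.05, SE 0.26, limma adjusted p = 6.8e-10). Atp2a3 (chr11:72961169-72993044, plus strand), a calcium pump of the endoplasmic reticulum, stood at 76.5, 67.6 and 79.8 FPKM in the normal libraries and at 1.68, 1.86 and 2.61 FPKM in the implanted libraries (log2 change -4.64, SE 0.25, limma adjusted p = 8.71e-10). In both genes each implanted library was below 3 FPKM. Areg, the EGF receptor ligand amphiregulin, fell from 34.7 ± 9.67 to 0.61 ± 0.143 FPKM, and Tmem56, a membrane protein, from 25.3 ± 3.31 to 0.516 ± 0.177 FPKM. Chp2, which binds calcineurin, fell from 68.6 ± 7.27 to 3.17 ± 0.364 FPKM and the neuropeptide Y receptor Npy1r from 25.4 ± 4.33 to 1.21 ± 0.378 FPKM. Glycam1, a mucin that carries ligands for L-selectin, fell from 22.6 ± 6.69 to 0.575 ± 0.448 FPKM. The phospholipid transfer protein Pltp fell from 87.2 ± 12.1 to 5.95 ± 1.05 FPKM and Cdo1, which breaks down cysteine, from 31 ± 7.03 to 1.2 ± 0.426 FPKM. The scavenger receptor family gene Scara3 and the small GTPases Rasd1 and Rasl11a fell by 3.53, 3.52 and 3.55 on the log2 scale. The secreted protein Ccdc3 and the matrix-associated protein Mamdc2 fell by 3.88 and 3.91, and H2-M9, a non-classical MHC class I gene with close relatives, by 3.95. Among all called genes the lowest adjusted p belonged to Bcam (chr7:19756131-19771016, minus strand), a laminin receptor, which stood at 146, 154 and 161 FPKM in the normal libraries and at 18.1, 20.1 and 18.9 FPKM in the implanted libraries (log2 change -2.95, SE 0.08, limma adjusted p = 2.49e-12). It was followed among the falls by the oestrogen-binding receptor Gper1 (-3.40), the exchange factor Net1 (-3.30), Tmem100 (-3.46), a target of BMP signalling in arterial ECs, and Tmem56. Summed mural markers were also lower, at 1230 to 1380 FPKM in normal and 312 to 363 FPKM in implanted ECs. Of the epithelial markers 9 were called higher and 4 lower. The part of either cell type in these falls was not tested. The lowest adjusted p values among the rises were those of Pkm, Igfbp3, Pgk1, Litaf and Egln3, and Litaf, a lysosomal membrane protein, rose from 21.9 ± 1.32 to 101 ± 2.45 FPKM (2.16).

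**Figure D3:**
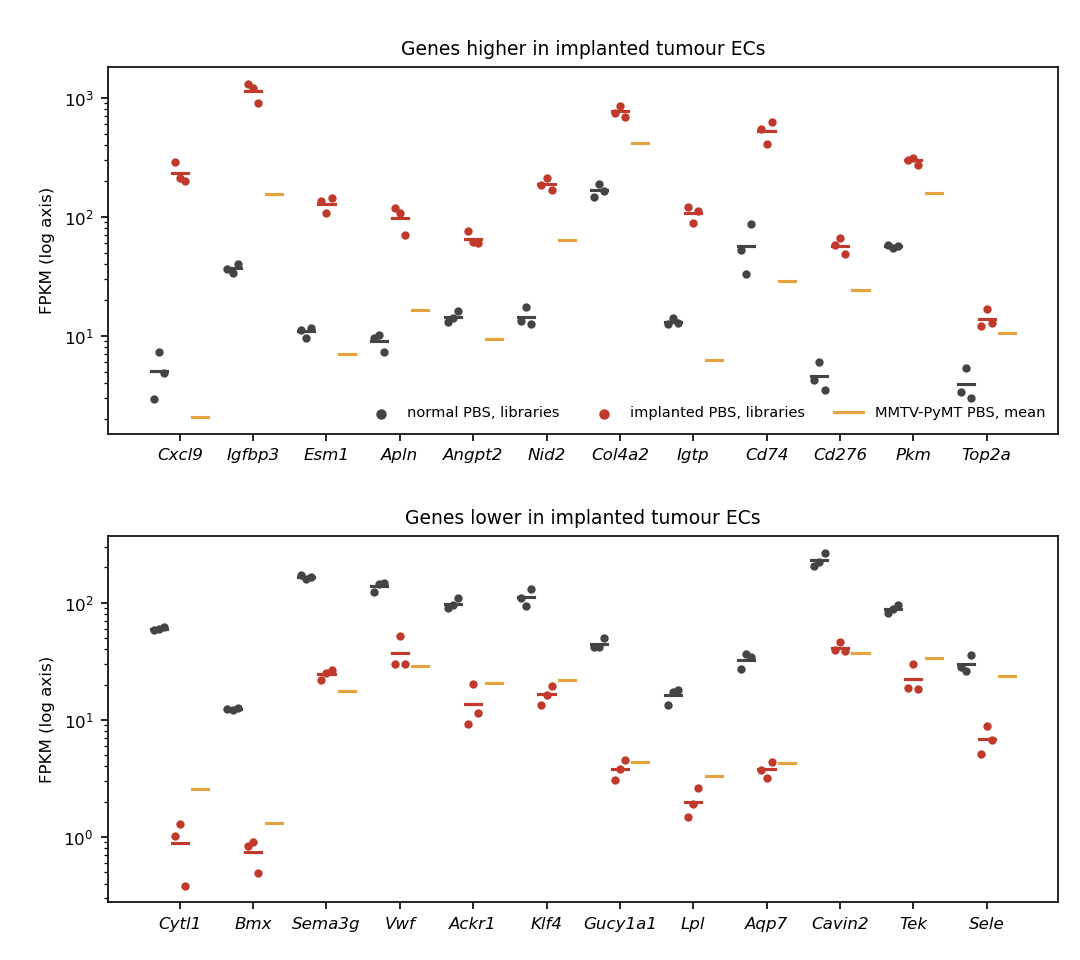
FPKM (log axis) of 12 genes that were higher and 12 that were lower in implanted ECs under PBS, with each point a library (3 normal, 3 implanted) and bars at the means of normal, implanted and MMTV-PyMT ECs. The implanted libraries lay above the normal ones in the upper panel, while in the lower one they lay under them, with Igfbp3 at 896 to 1310 FPKM and Cytl1 at 0.383 to 1.28 FPKM in the implanted libraries.

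Described next are short gene lists, each by the number of members called and by its median log2 change, beside 5.74% called higher, 5.71% called lower and a median of 0.01 over all tested genes. No test of a list was made. Under total-read scaling the median of the TNF receptor and apoptosis list went from 0.15 to -0.02 and that of the TGF-beta and BMP list from 0.05 to -0.12 (-0.02 under quantile normalization).

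**Figure D4:**
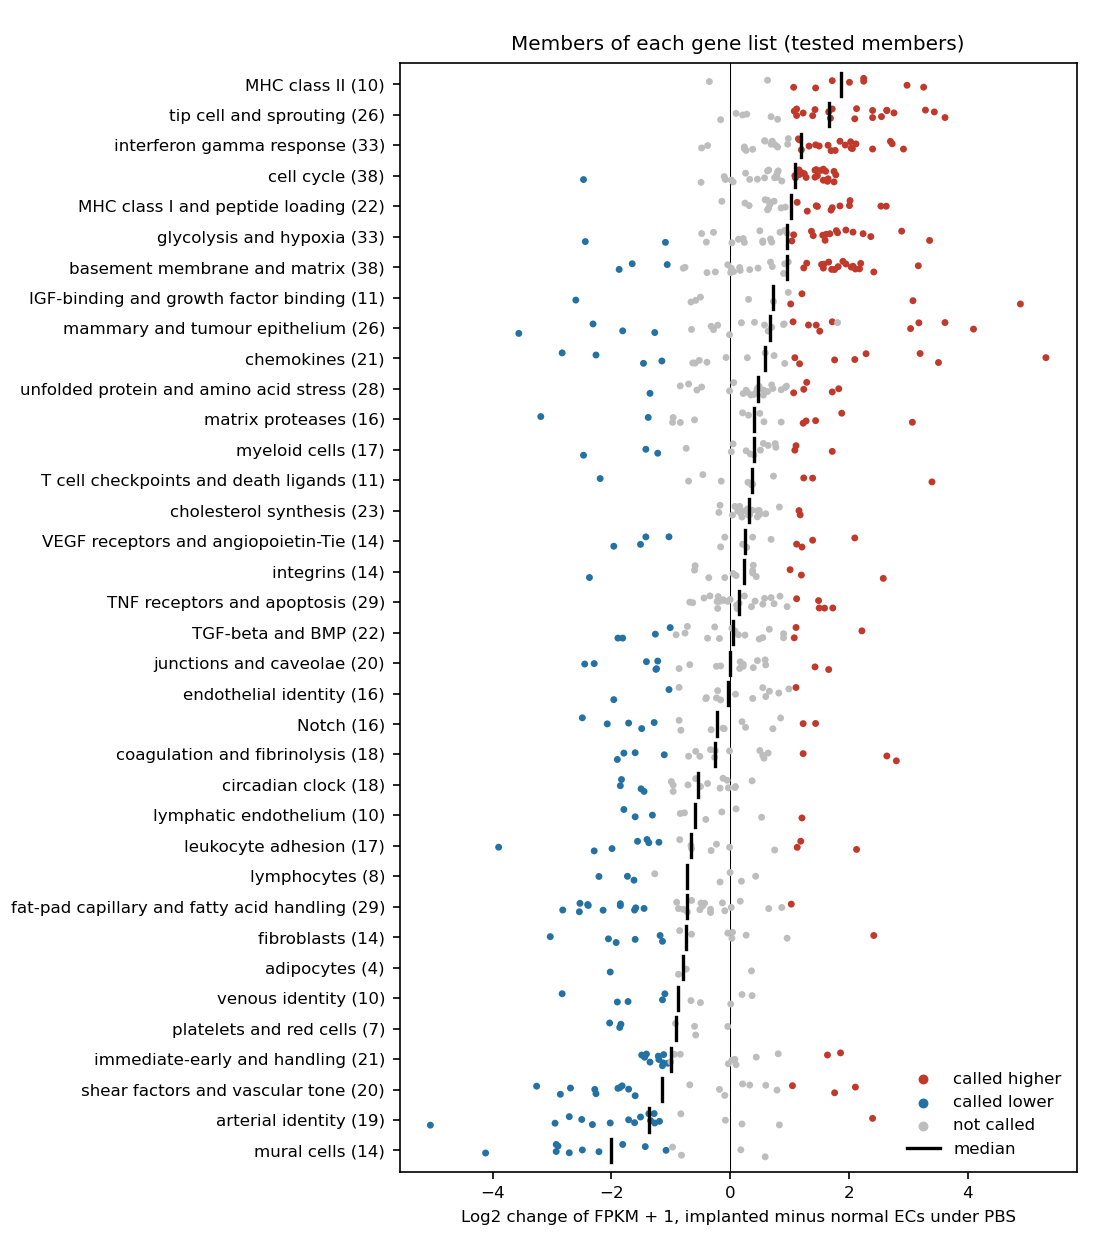
Log2 change of FPKM + 1, implanted minus normal ECs under PBS, for the tested members of each gene list (number in brackets), with called members in colour and the median of each list as a bar. Medians ran from -2.01 for mural cells to 1.87 for MHC class II, with the tip cell list at 1.67 and the arterial list at -1.37.

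Genes of tip cells and sprouting rose in implanted ECs (22 of 26). Among them 20 were called higher and 0 lower, with a median change of 1.67. Apln, a peptide ligand secreted by tip cells, stood at 9.55, 10.2 and 7.33 FPKM in the normal libraries and at 119, 108 and 69.8 FPKM in the implanted libraries (log2 change 3.29, SE 0.36, limma adjusted p = 1.76e-06), and the 3 implanted libraries lay well above the normal ones. Trp53i11, a tip cell marker, rose from 18.4 ± 1.51 to 131 ± 21.1 FPKM. Of the VEGF and angiopoietin-Tie genes, 4 of 14 were called higher and 4 lower. Among the ligands, Angpt2, which opposes Tie2 signalling, rose from 14.5 ± 1.6 to 65.7 ± 8.91 FPKM (log2 change 2.10, SE 0.19, limma adjusted p = 2.65e-07), and Angpt1, its activating counterpart, fell from 6.14 ± 0.601 to 1.68 ± 0.469 FPKM (-1.42). Vegfa rose from 4.12 ± 0.428 to 12.6 ± 2.57 FPKM and Pgf, placental growth factor, from 5.1 ± 0.888 to 12.2 ± 1.08 FPKM (1.12), although the latter was under the fold limit with total-read scaling. Vegfc, which acts on lymphatic vessels, fell from 21.3 ± 2.23 to 6.85 ± 1.25 FPKM (-1.51). Among the receptors, Tek (chr4:94739289-94874976, plus strand), which encodes Tie2, stood at 81, 88.5 and 95.3 FPKM in the normal libraries and at 18.8, 29.7 and 18.5 FPKM in the implanted libraries (log2 change -1.96, SE 0.18, limma adjusted p = 2.11e-07), so that Angpt2 rose while its receptor fell. Flt4, VEGF receptor 3, rose from 18.5 ± 1.18 to 44.4 ± 6.65 FPKM (1.21). Kdr, VEGF receptor 2, which was chosen after its values were seen, rose from 75 ± 4.62 to 122 ± 10.5 FPKM, less than the fold limit (log2 change 0.69, SE 0.19, limma adjusted p = 0.00691).

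Members of the Notch list moved both ways, with 2 of 16 called higher and 5 lower. The endothelial receptor Notch4 rose from 31.3 ± 1.33 to 86.7 ± 9.09 FPKM (log2 change 1.44, SE 0.15, limma adjusted p = 1.22e-06) and the ligand Dll4, expressed by tip and arterial cells, from 55.8 ± 5.21 to 133 ± 18.3 FPKM (log2 change 1.23, SE 0.18, limma adjusted p = 4.87e-05). The receptor Notch3, a marker of mural cells, stood at 132, 127 and 139 FPKM in the normal libraries and at 21.8, 23.1 and 23.5 FPKM in the implanted libraries (log2 change -2.49, SE 0.21, limma adjusted p = 1.03e-07), while the summed mural markers were 1230 to 1380 FPKM in normal and 312 to 363 FPKM in implanted ECs. Lfng, which modifies Notch receptors with sugar, fell from 35.1 ± 6.27 to 7.55 ± 1.16 FPKM (-2.07).

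More basement membrane and matrix genes rose (23 of 38) than fell (6). Among them 18 were called higher and 3 lower, with a median of 0.95, and their summed FPKM were 2230 to 2590 in normal and 7340 to 7610 in implanted ECs. Col4a2, a chain of the type IV collagen of basement membranes, stood at 147, 188 and 164 FPKM in the normal libraries and at 752, 861 and 693 FPKM in the implanted libraries (log2 change 2.20, SE 0.21, limma adjusted p = 3.81e-07). Lamb1, a laminin beta chain, stood at 24.1, 30.3 and 25.1 FPKM in the normal libraries and at 123, 139 and 109 FPKM in the implanted libraries (log2 change 2.18, SE 0.19, limma adjusted p = 1.92e-07). Both were higher in every implanted library. A different laminin beta chain, Lamb2, went the other way and fell from 93.1 ± 4.09 to 24.8 ± 1.58 FPKM (log2 change -1.87, SE 0.10, limma adjusted p = 7.63e-10), and Col8a1, a short-chain collagen, fell from 22.3 ± 1.17 to 6.43 ± 0.564 FPKM. Col1a1, a chain of fibrillar collagen type I and a member of the fibroblast list, rose from 33.8 ± 2.75 to 186 ± 16.5 FPKM (2.42). Of the 14 fibroblast markers 6 were called lower and only Col1a1 higher, and the proteoglycan Dcn fell from 11.2 ± 0.546 to 2.25 ± 0.447 FPKM. Spp1, the secreted adhesion protein osteopontin, stood at 230, 212 and 165 FPKM in the normal libraries and at 1870, 1380 and 2320 FPKM in the implanted libraries (log2 change 3.17, SE 0.40, limma adjusted p = 7.77e-06), beside the higher sums of the epithelial markers given above.

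The 16 matrix proteases and inhibitors were mixed, with 5 called higher and 2 lower. The number called lower was 5 under total-read scaling, 4 under quantile normalization and 4 without either implanted library 3 or normal library 1. The aggrecanase Adamts4 rose from 11.3 ± 0.251 to 103 ± 14.7 FPKM (log2 change 3.07, SE 0.24, limma adjusted p = 3.89e-08) and the membrane protease Mmp14 from 17.3 ± 1.25 to 49.1 ± 8.04 FPKM (1.44). Of the inhibitors, Timp1 rose (1.88) while Timp4 fell from 11.4 ± 1.98 to 0.365 ± 0.28 FPKM (log2 change -3.19, SE 0.23, limma adjusted p = 1.94e-08) and Timp2 from 97.2 ± 5.1 to 36.6 ± 0.992 FPKM (-1.38). Among the 14 integrins 3 were called higher and 1 lower. Itgb3, a subunit of the vitronectin receptor of sprouting ECs, rose from 9.12 ± 0.134 to 59.7 ± 5.66 FPKM (log2 change 2.58, SE 0.15, limma adjusted p = 1.63e-09). Itga7, a laminin receptor of muscle, fell from 13.5 ± 0.852 to 1.81 ± 0.389 FPKM (-2.37) together with the mural markers. Of the 11 tested IGF genes 4 were called higher and 1 lower. Besides Igfbp3, Igfbp2 rose from 2.95 ± 0.478 to 32.8 ± 8.35 FPKM (3.08), and the growth factor Igf2 itself fell from 5.94 ± 0.648 to 0.144 ± 0.0815 FPKM (-2.60).

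Genes of the interferon-gamma response list were higher in implanted ECs with no agonist given, and 29 of 33 tested members rose. In MMTV-PyMT ECs cGAMP raised Igtp, Irf7, Tgtp1 and Gbp2 by 4.94, 2.25, 4.56 and 4.30 on the log2 scale, while Ifngr1 did not pass. Whether an interferon caused the rises in implanted ECs, and which, was not tested. Of the 33 members 19 were called higher and 0 lower, and the median change was 1.20. Igtp, an immunity-related GTPase, stood at 12.7, 14.1 and 12.8 FPKM in the normal libraries and at 122, 88.3 and 112 FPKM in the implanted libraries (log2 change 2.92, SE 0.18, limma adjusted p = 4.93e-09). The related GTPase Tgtp1, which has a near-identical neighbour, stood at 2.25, 2.88 and 2.43 FPKM in the normal libraries and at 25.4, 18.3 and 22.1 FPKM in the implanted libraries (log2 change 2.7, SE 0.15, limma adjusted p = 1.63e-09). Irf7, an interferon regulatory factor, stood at 5.65, 7.26 and 4.62 FPKM in the normal libraries and at 68.5, 34.9 and 35.4 FPKM in the implanted libraries (log2 change 2.73, SE 0.37, limma adjusted p = 1.79e-05), and implanted library 1 was the highest of all 6. Gbp2, a guanylate-binding protein, rose from 48.7 ± 5.13 to 263 ± 55.7 FPKM (log2 change 2.40, SE 0.20, limma adjusted p = 1.23e-07). Only Ifngr1, the receptor subunit that binds interferon-gamma, passed as lower among the members of this list, from 59.2 ± 7.56 to 42.1 ± 1.72 FPKM (log2 change -0.48, SE 0.10, limma adjusted p = 0.00115).

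Promoters of the 4 interferon-list members with the largest rises are shown because these genes moved together. Each is the 250 bases before the transcription start from RefSeq (GRCm38.p6), written 5′ to 3′ in the sense of the gene, and capitals mark matches on either strand to the interferon-stimulated response element (a pair of GAAA blocks with any 2 bases between them) or to TTCNNNGAA, the letters of a gamma-activated site, where N is any base. They lie at chr11:58199306-58199555 on the plus strand for Igtp, chr7:141266425-141266674 on the minus strand for Irf7, chr11:48992247-48992496 on the minus strand for Tgtp1 and chr3:142620413-142620662 on the plus strand for Gbp2.
Igtp: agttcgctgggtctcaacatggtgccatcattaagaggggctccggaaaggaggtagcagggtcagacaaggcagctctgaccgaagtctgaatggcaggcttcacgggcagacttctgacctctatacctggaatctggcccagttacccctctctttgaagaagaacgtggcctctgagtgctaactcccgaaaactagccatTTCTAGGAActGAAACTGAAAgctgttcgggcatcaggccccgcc
Irf7: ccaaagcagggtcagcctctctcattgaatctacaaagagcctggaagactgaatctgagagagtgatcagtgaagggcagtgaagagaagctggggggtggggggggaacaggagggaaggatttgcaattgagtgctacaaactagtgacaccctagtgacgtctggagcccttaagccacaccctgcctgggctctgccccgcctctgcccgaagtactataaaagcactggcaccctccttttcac
Tgtp1: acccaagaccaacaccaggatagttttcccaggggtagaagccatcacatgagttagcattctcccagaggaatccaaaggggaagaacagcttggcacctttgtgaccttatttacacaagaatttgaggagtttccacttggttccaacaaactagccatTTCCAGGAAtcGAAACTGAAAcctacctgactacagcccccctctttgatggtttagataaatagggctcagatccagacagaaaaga
Gbp2: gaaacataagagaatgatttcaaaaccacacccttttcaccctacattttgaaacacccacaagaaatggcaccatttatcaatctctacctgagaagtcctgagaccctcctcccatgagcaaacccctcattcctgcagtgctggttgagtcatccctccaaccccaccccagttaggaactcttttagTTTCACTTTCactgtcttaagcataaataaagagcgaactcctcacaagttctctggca

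In these windows Igtp and Tgtp1 held both motifs, Gbp2 held the response element, and Irf7 held neither. The table held 17 promoters of 15 of the 19 interferon-list genes called higher. The response element was present in 11 of them (64.7%) and the gamma-activated site in 5 (29.4%), against 2.98% and 7.02% of all 32851 promoters of the same length. A match is a description of the letters and not a site of binding.

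Antigen presentation genes rose in both classes. Of the 22 genes of MHC class I and peptide loading, 11 were called higher and 0 lower, with a median of 1.03. Nlrc5, the transcriptional activator of class I genes, rose from 2.23 ± 0.0612 to 12.1 ± 1.29 FPKM (2.02), Tap1, which transports peptides into the endoplasmic reticulum, from 7.75 ± 0.901 to 50.1 ± 6.89 FPKM (log2 change 2.54, SE 0.19, limma adjusted p = 2.34e-08), and H2-Q7, one of several similar non-classical class I genes, from 4.24 ± 0.985 to 31.2 ± 2.43 FPKM (2.63). Of the 10 MHC class II genes 8 were called higher and 0 lower, with a median of 1.87. Cd74, the invariant chain, stood at 52.3, 33.1 and 86.9 FPKM in the normal libraries and at 545, 409 and 629 FPKM in the implanted libraries (log2 change 3.26, SE 0.50, limma adjusted p = 5.95e-05). H2-Ab1 stood at 9.17, 6.57 and 15.3 FPKM in the normal libraries and at 84.4, 66.6 and 105 FPKM in the implanted libraries (log2 change 2.98, SE 0.48, limma adjusted p = 9.08e-05), and H2-Aa at 14.5, 8.66 and 22.7 FPKM in the normal libraries and at 72.9, 54.4 and 92 FPKM in the implanted libraries (log2 change 2.25, SE 0.56, limma adjusted p = 0.00323). In all 3 genes the lowest implanted library was above the highest normal one. Within each group these genes ordered the libraries as Ptprc did, with library 3 highest and library 2 lowest. Ptprc was at 3.91, 1.98 and 6.31 FPKM in normal and 0.964, 0.37 and 1.09 FPKM in implanted libraries 1 to 3. The myeloid sums had the same order, at 190, 174 and 262 FPKM in normal and 161, 96.4 and 226 FPKM in implanted libraries. The part of leukocytes in these rises was not tested. Ciita, the activator of class II genes, rose from 0.799 ± 0.198 to 3.91 ± 0.859 FPKM (log2 change 1.44, SE 0.22, limma adjusted p = 4.84e-05) and H2-DMb1, which helps to load peptides, from 1.2 ± 0.342 to 9.4 ± 0.515 FPKM (2.25). Class II genes are also expressed by leukocytes. Ptprc was at or below 1.09 FPKM in the implanted libraries, and the myeloid markers, of which 3 of 17 tested were called higher and 3 lower (Ctss stands on both lists and was 1 of the 3 higher), summed to 96.4 to 226 FPKM there and to 174 to 262 FPKM in normal ECs. The lymphocyte markers in the table, 8 of 16, summed to 7.57 to 11.9 FPKM in implanted and 18.8 to 47.6 FPKM in normal ECs.

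Of 21 tested genes of chemokines, scavenging receptors and cytokines 8 were called higher and 4 lower. The 3 ligands of CXCR3, a chemokine receptor of T cells, all rose. Beside Cxcl9, Cxcl10 stood at 1.24, 1.16 and 0.82 FPKM in the normal libraries and at 24.9, 16 and 14.5 FPKM in the implanted libraries (log2 change 3.20, SE 0.22, limma adjusted p = 1.05e-08), and Cxcl11 at 0.134, 0.0444 and 0.0973 FPKM in the normal libraries and at 15.2, 10.2 and 9.55 FPKM in the implanted libraries (log2 change 3.51, SE 0.26, limma adjusted p = 2.9e-08). Cxcl12, a homeostatic chemokine, fell from 154 ± 15.3 to 55.6 ± 9.01 FPKM (-1.46), and Ackr1, a venular receptor that takes up chemokines, stood at 89.7, 96.1 and 109 FPKM in the normal libraries and at 9.14, 20.4 and 11.5 FPKM in the implanted libraries (log2 change -2.83, SE 0.24, limma adjusted p = 1.06e-07). Ackr2, another receptor that takes up chemokines, went the other way, from 1.11 ± 0.187 to 9.42 ± 1.95 FPKM (log2 change 2.29, SE 0.18, limma adjusted p = 6.5e-08). Among 11 tested checkpoint and death ligand genes, 3 were called higher and 1 lower. Pvr, the ligand of the receptor TIGIT, rose from 4.43 ± 0.53 to 11.8 ± 1.22 FPKM and Fas, the death receptor, fell from 17.1 ± 4.34 to 2.91 ± 0.402 FPKM (log2 change -2.19, SE 0.18, limma adjusted p = 1e-07). Of 29 genes of TNF receptors and apoptosis 5 were called higher and 0 lower, with a median of 0.15. Mlkl, the effector of necroptosis, rose from 4.17 ± 0.591 to 14.5 ± 0.61 FPKM and the cytokine Tnf from 2.46 ± 0.133 to 8.98 ± 2.53 FPKM.

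Of 38 cell cycle genes 31 passed as higher, 20 were called higher and 1 lower, and the median was 1.09. It was 0.61 when members averaging below 5 FPKM were left out and 1.56 with voom on recovered reads. The epithelial markers, at 794 to 1140 FPKM in normal and 1820 to 2490 FPKM in implanted ECs, moved with these genes, and their part was not tested. Plk1, a mitotic kinase, stood at 1.04, 2.19 and 1.17 FPKM in the normal libraries and at 7.01, 10.1 and 5.43 FPKM in the implanted libraries (log2 change 1.78, SE 0.27, limma adjusted p = 5.82e-05). Top2a, which untangles replicated DNA and is named because its promoter is shown, stood at 3.38, 5.38 and 3.02 FPKM in the normal libraries and at 12, 16.9 and 12.8 FPKM in the implanted libraries (log2 change 1.61, SE 0.26, limma adjusted p = 9.54e-05). In both, implanted library 2 was the highest. Birc5, an inhibitor of apoptosis with a role in mitosis, stood at 0.423, 0.644 and 0.298 FPKM in the normal libraries and at 3.62, 4.81 and 3.27 FPKM in the implanted libraries, and Ube2c, a ubiquitin-conjugating enzyme of mitotic exit, stood at 0.749, 0.713 and 0.497 FPKM in the normal libraries and at 3.17, 6.6 and 4.4 FPKM in the implanted libraries, with the same library the highest. The one called fall was that of Cdkn1c, the cyclin-dependent kinase inhibitor p57, which fell from 12 ± 1.88 to 1.36 ± 0.481 FPKM (log2 change -2.47, SE 0.17, limma adjusted p = 1.39e-08).

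Promoters of the 4 cell cycle genes with the largest rises and an entry in the same RefSeq table are given in the same way. Capitals mark matches on either strand to TTTGAA, the letters of a cell cycle genes homology region, or CCAAT, those bound by NF-Y. They lie at chr7:122159185-122159434 on the plus strand for Plk1, chr2:164769679-164769928 on the plus strand for Ube2c, chr11:117848987-117849236 on the plus strand for Birc5 and chr11:99024190-99024439 on the minus strand for Top2a.
Plk1: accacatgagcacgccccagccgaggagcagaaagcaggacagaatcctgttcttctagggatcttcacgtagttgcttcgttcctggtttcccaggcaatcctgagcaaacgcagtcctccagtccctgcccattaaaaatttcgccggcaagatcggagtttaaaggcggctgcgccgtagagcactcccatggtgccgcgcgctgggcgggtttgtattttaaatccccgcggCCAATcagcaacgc
Ube2c: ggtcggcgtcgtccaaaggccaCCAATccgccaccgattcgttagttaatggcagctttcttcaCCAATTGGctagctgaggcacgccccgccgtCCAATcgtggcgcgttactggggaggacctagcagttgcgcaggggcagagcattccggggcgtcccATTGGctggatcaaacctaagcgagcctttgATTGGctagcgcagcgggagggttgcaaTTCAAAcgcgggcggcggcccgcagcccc
Birc5: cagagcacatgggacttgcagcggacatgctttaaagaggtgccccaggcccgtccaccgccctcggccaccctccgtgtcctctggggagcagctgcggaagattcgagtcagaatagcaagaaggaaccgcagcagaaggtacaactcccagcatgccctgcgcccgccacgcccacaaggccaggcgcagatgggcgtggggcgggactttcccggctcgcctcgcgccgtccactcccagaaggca
Top2a: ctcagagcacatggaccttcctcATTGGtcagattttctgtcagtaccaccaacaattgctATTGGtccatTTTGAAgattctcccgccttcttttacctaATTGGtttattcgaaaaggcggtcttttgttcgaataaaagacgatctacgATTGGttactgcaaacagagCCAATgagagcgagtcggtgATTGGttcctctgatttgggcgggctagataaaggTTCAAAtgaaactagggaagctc

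Plk1 held 1 CCAAT, Ube2c 6 and Top2a 6, while TTTGAA occurred 1 time in Ube2c and 2 times in Top2a, and Birc5 held neither. Among the 16 promoters of 16 of the 20 called genes, 12 held CCAAT (75%) and 6 held TTTGAA (37.5%), against 33.8% and 16% of all promoters in the table.

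Of the glycolytic and hypoxia-induced genes 24 of 33 rose and 5 fell. Among them 16 were called higher and 2 lower, with a median of 0.96. Pkm (chr9:59656368-59679375, plus strand), pyruvate kinase, stood at 57.6, 55.2 and 57.4 FPKM in the normal libraries and at 303, 315 and 275 FPKM in the implanted libraries, and of the genes called higher it had the lowest adjusted p (log2 change 2.37, SE 0.09, limma adjusted p = 4.36e-11). Pgk1, phosphoglycerate kinase, stood at 18.2, 19.4 and 19.4 FPKM in the normal libraries and at 96.9, 94.5 and 89.2 FPKM in the implanted libraries (log2 change 2.24, SE 0.10, limma adjusted p = 2.39e-10). The spread within each group was small against the difference in both. Slc16a3, which exports lactate, rose from 1.03 ± 0.195 to 14.2 ± 3.35 FPKM (2.89). The 2 called falls were of the insulin-regulated glucose transporter Slc2a4, from 9.47 ± 0.555 to 0.944 ± 0.337 FPKM (-2.44), and of Epas1, the EC-enriched hypoxia-inducible factor HIF-2 alpha, from 331 ± 22.3 to 155 ± 4.65 FPKM (log2 change -1.09, SE 0.17, limma adjusted p = 7.34e-05).

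Genes of arterial and venous identity fell. Of 19 tested arterial genes 14 were called lower and 1 higher, with a median of -1.37. Bmx, an arterial tyrosine kinase, stood at 12.4, 12.2 and 12.7 FPKM in the normal libraries and at 0.831, 0.913 and 0.491 FPKM in the implanted libraries (log2 change -2.95, SE 0.14, limma adjusted p = 2.99e-10). Sema3g, an arterial semaphorin, stood at 172, 159 and 165 FPKM in the normal libraries and at 21.8, 25 and 26.5 FPKM in the implanted libraries (log2 change -2.71, SE 0.17, limma adjusted p = 5.11e-09). All implanted libraries were far below all normal ones in both. Elastin, Eln, fell from 47 ± 2.76 to 7.61 ± 1.89 FPKM (-2.50), beside the lower mural markers, and mural cells also express this gene. The member called higher was Unc5b, a netrin receptor that also stands on the tip cell list, from 8.78 ± 0.282 to 51 ± 8.59 FPKM (log2 change 2.40, SE 0.16, limma adjusted p = 6.3e-09), and Efnb2, the arterial ephrin-B2, rose less than the fold limit, from 30.3 ± 1.15 to 54.6 ± 0.604 FPKM (log2 change 0.83, SE 0.20, limma adjusted p = 0.00316). Of 10 venous genes 5 were called lower and 0 higher, with a median of -0.88. Nr2f2, the transcription factor that sets venous fate, stood at 19.6, 20.2 and 24.5 FPKM in the normal libraries and at 3.71, 8.81 and 5.77 FPKM in the implanted libraries (log2 change -1.72, SE 0.22, limma adjusted p = 1.06e-05), and Vwf, von Willebrand factor, fell from 138 ± 11.8 to 37.3 ± 12.7 FPKM (-1.90). Of the 10 tested lymphatic markers 1 was called higher and 3 lower, and the hyaluronan receptor Lyve1 fell from 20.4 ± 2.35 to 7.83 ± 2.47 FPKM.

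Of the genes induced by laminar flow and those of vascular tone 11 of 20 fell and 5 rose. Among them 10 were called lower and 3 higher, with a median of -1.14. Klf4 (chr4:55527143-55532466, minus strand), a flow-induced transcription factor, stood at 110, 94 and 132 FPKM in the normal libraries and at 13.4, 16.4 and 19.6 FPKM in the implanted libraries (log2 change -2.69, SE 0.19, limma adjusted p = 1.31e-08). Its relative Klf2, chosen after its values were seen, fell from 158 ± 28.2 to 44 ± 5.77 FPKM (log2 change -1.82, SE 0.24, limma adjusted p = 1.32e-05). Npr1, the receptor of atrial natriuretic peptide, fell from 61.2 ± 6.26 to 11.8 ± 1.09 FPKM. Gucy1a1 and Gucy1b1, the subunits of the nitric oxide receptor of smooth muscle, fell from 44.6 ± 4.51 to 3.78 ± 0.723 FPKM and from 30.4 ± 3.78 to 3.31 ± 0.154 FPKM (-3.26 and -2.86). They moved with the mural markers (1230 to 1380 FPKM in normal and 312 to 363 FPKM in implanted ECs). The potassium channel Kcnj2 and the prostaglandin synthase Ptgs2 rose, from 9.64 ± 1.02 to 45.7 ± 10.9 FPKM and from 0.488 ± 0.107 to 4.35 ± 2.07 FPKM.

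Of 29 fatty acid handling genes of the fat-pad capillary 20 fell, 3 rose and 6 did not pass. With the fold limit 11 were called lower and 1 higher, and the median was -0.72. The glycerol channel Aqp7 stood at 27, 36.7 and 34.2 FPKM in the normal libraries and at 3.71, 3.19 and 4.4 FPKM in the implanted libraries (log2 change -2.82, SE 0.31, limma adjusted p = 2.3e-06). Lpl, lipoprotein lipase, fell from 16.3 ± 2.5 to 2 ± 0.567 FPKM, the fatty acid hydroxylase Cyp4b1 from 100 ± 11.3 to 17 ± 5.19 FPKM, and Tcf15, a transcription factor of fatty acid-transporting capillaries, from 20.6 ± 2.65 to 3.11 ± 0.607 FPKM. Cd36 (chr5:17781690-17888801, minus strand), the fatty acid transporter, which was chosen after its values were seen, stood at 513, 701 and 706 FPKM in the normal libraries and at 130, 132 and 170 FPKM in the implanted libraries (log2 change -2.14, SE 0.25, limma adjusted p = 3.79e-06). The one called rise was that of Gpihbp1, which anchors lipoprotein lipase to the capillary wall, from 32.3 ± 5.26 to 66.9 ± 10.2 FPKM (log2 change 1.03, SE 0.21, limma adjusted p = 0.000823), and its change was as low as 0.85 under other settings. The summed adipocyte markers overlapped between the groups, at 57.4 to 66.8 FPKM in normal and 46.3 to 74.8 FPKM in implanted ECs. Of these 4 markers 3 passed as lower, 1 of them was called, and the median was -0.80, and their part in the falls above was not tested. Of 20 genes of junctions and caveolae 6 were called lower and 2 higher. Cavin2, a coat protein of caveolae, fell from 231 ± 31.9 to 41.4 ± 4.11 FPKM (log2 change -2.45, SE 0.16, limma adjusted p = 7.12e-09), and the caveolar protein Cav1, chosen after its values were seen, from 497 ± 34.9 to 214 ± 18.7 FPKM (-1.22). The gap junction protein Gja1 rose from 21.7 ± 1.5 to 71 ± 6.54 FPKM and the endothelial protocadherin Pcdh12 from 12.1 ± 0.893 to 34.7 ± 4.38 FPKM.

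Leukocyte adhesion genes were more often called lower (7 of 17) than higher (3), with a median of -0.66. Sele, the cytokine-induced E-selectin, stood at 28.4, 26.3 and 35.6 FPKM in the normal libraries and at 5.11, 8.88 and 6.74 FPKM in the implanted libraries (log2 change -1.99, SE 0.34, limma adjusted p = 0.000159), and Jam2, a junctional partner of leukocyte integrins, fell from 80.9 ± 11.1 to 16 ± 3.91 FPKM (log2 change -2.29, SE 0.18, limma adjusted p = 6.17e-08). Vcam1, which binds the integrin VLA-4, fell from 16.8 ± 2.13 to 10.3 ± 1.43 FPKM (log2 change -0.66, SE 0.25, limma adjusted p = 0.0358). That change did not pass without implanted library 2 (-0.57) or 3 (-0.66), nor without normal library 2 (-0.60) or 3 (-0.62). Icam1, chosen after its values were seen, stood at 25.8 ± 1.28 FPKM in normal and 20.6 ± 2.89 FPKM in implanted ECs and did not pass (log2 change -0.32, SE 0.22, limma adjusted p = 0.239), although it passed in a fit to the 6 libraries alone. In contrast, Mcam rose from 60.9 ± 2.64 to 274 ± 55.9 FPKM (log2 change 2.13, SE 0.17, limma adjusted p = 4.37e-08) and Cd34, a sialomucin that also marks tip cells, from 44.9 ± 4.87 to 104 ± 13.4 FPKM (1.19).

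Further lists moved less uniformly. Of 22 tested TGF-beta and BMP genes 3 were called higher and 4 lower, which became 1 and 5 under total-read scaling. Inhbb, an activin subunit, rose from 27.5 ± 2.45 to 133 ± 20.3 FPKM, and the co-receptor Tgfbr3 and the latent TGF-beta binding protein Ltbp4 fell from 57 ± 6.39 to 14.7 ± 2.4 FPKM and from 187 ± 8.4 to 53.1 ± 9.46 FPKM. Of 18 tested genes of coagulation 3 were called higher and 4 lower. Tfpi2, an inhibitor of serine proteases, rose from 1.25 ± 0.118 to 14.8 ± 2.82 FPKM (log2 change 2.80, SE 0.18, limma adjusted p = 6.09e-09). Of 23 cholesterol synthesis genes 2 were called higher and 0 lower, and of 28 genes of the unfolded protein and amino acid stress responses 5 were called higher and 1 lower. Of the 18 clock genes 4 were called lower (7 under total-read scaling or without implanted library 3) and 0 higher, among them the repressor Nr1d1, from 28.8 ± 0.392 to 7.28 ± 0.887 FPKM, and the output regulator Dbp, from 7.24 ± 0.194 to 1.33 ± 0.339 FPKM. The time of day of each injection is not given in the sources used here. Of 21 tested immediate-early genes, which also respond within minutes to tissue dissociation, 10 were called lower and 2 higher, with a median of -1.0. Fos stood at 1380, 1120 and 1480 FPKM in the normal libraries and at 538, 395 and 482 FPKM in the implanted libraries (log2 change -1.49, SE 0.15, limma adjusted p = 6.81e-07), Egr1 fell from 323 ± 42.7 to 121 ± 20.2 FPKM, Btg2 from 270 ± 39.3 to 98.7 ± 12.9 FPKM and Atf3 from 137 ± 28.2 to 52.4 ± 5.18 FPKM. The heat shock gene Hspa1b, whose neighbour is nearly identical, rose from 29.5 ± 8.87 to 106 ± 8.84 FPKM (1.86).

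Implanted ECs were also tested against ECs of the spontaneous MMTV-PyMT tumours under PBS. That comparison shares the implanted libraries, so only the values of single genes are given. A gene called in it can still have changed the same way in both tumours against normal ECs. Of the 13983 genes 598 were called higher (4.28%) and 427 lower (3.05%) in implanted ECs. Named here are the 5 largest rises and falls against normal ECs among genes also called in this comparison. Cxcl9 averaged 5.07 ± 2.19 FPKM in normal, 235 ± 47.9 FPKM in implanted and 2.09 ± 0.305 FPKM in MMTV-PyMT ECs, and the log2 difference of implanted from MMTV-PyMT ECs was 6.24, SE 0.31, limma adjusted p = 1.9e-09. Igfbp3 averaged 36.9 ± 3.4 FPKM, 1140 ± 217 FPKM and 155 ± 8.75 FPKM in the same order, so that MMTV-PyMT ECs stood between the others. Serpina3f (1.34 ± 0.547 FPKM) and Serpina3g (0.565 ± 0.29 FPKM) were low in MMTV-PyMT ECs, as they were in normal ECs, and Ms4a6d was at 0.959 ± 0.468 FPKM. The implanted ECs exceeded them by 4.93, 4.76 and 3.38 on the log2 scale.

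Among the falls, Atp2a3 averaged 74.6 ± 6.29 FPKM in normal, 2.05 ± 0.49 FPKM in implanted and 31.6 ± 9.45 FPKM in MMTV-PyMT ECs (-3.39, SE 0.25, limma adjusted p = 7.52e-08). Glycam1 averaged 22.6 ± 6.69 FPKM, 0.575 ± 0.448 FPKM and 14 ± 8.7 FPKM. Tmem56, Rasd1 and the alcohol dehydrogenase Adh1 were at 3.14 ± 0.493 FPKM, 22 ± 4.9 FPKM and 3.3 ± 0.43 FPKM in MMTV-PyMT ECs, between their normal and implanted levels, and Adh1 was at 17.5 ± 2.96 FPKM in normal and 0.672 ± 0.0752 FPKM in implanted ECs. Against normal ECs, MMTV-PyMT ECs were also called lower in Atp2a3 (-1.25), Tmem56 (-2.67), Rasd1 (-2.13) and Adh1 (-2.1), while Glycam1 (-0.79) did not pass. An interferon-induced and an antigen-presentation gene are set beside these genes. Gbp2 averaged 48.7 ± 5.13 FPKM in normal, 263 ± 55.7 FPKM in implanted and 17.4 ± 1.38 FPKM in MMTV-PyMT ECs (3.83, SE 0.20, limma adjusted p = 3.72e-09), and Cd74 averaged 57.4 ± 27.2 FPKM, 528 ± 111 FPKM and 29.2 ± 4.63 FPKM (4.12, SE 0.50, limma adjusted p = 1.09e-05). For both genes the mean of MMTV-PyMT ECs lay below that of normal ECs. The cell cycle genes Plk1 and Top2a differed from MMTV-PyMT ECs by 0.17 and 0.34 on the log2 scale, neither of which passed the test. Birc5 passed as higher in implanted ECs (0.70, SE 0.18, limma adjusted p = 0.00603) and Cdkn1c as lower (-1.34, SE 0.17, limma adjusted p = 1.83e-05).

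The tissue difference was also fitted in 6 other libraries, those of implanted and normal ECs collected 3 h after cGAMP, with the estimate of the spread shared. There 1262 genes were called higher (9.03%) and 724 lower (5.18%) in implanted ECs. Of the genes called higher, 536 were the same under PBS and cGAMP, which is 66.7% of the PBS calls and 42.5% of the cGAMP calls, and 1 gene called higher under PBS was called lower under cGAMP. Of the genes called lower, 491 were the same (61.5% and 67.8%), and 2 went the other way. The 803 genes called higher under PBS had a median change of 1.40 under PBS and 1.34 under cGAMP, and the 799 called lower had medians of -1.50 and -1.20. The median under PBS follows from the call. In the cGAMP libraries the changes of implanted against normal ECs were 5.51 for Igfbp3, 3.50 for Nid2 and 2.46 for Col4a2, and -3.13 for Cytl1, -2.32 for Bmx and -2.08 for Cd36, and all of these passed the test. For Klf2 the change was -1.82 under PBS and -0.47 under cGAMP, where it did not pass, and for Vegfc -1.51 and -0.23. Vcam1 and Icam1, which were -0.66 and -0.32 under PBS, were higher in implanted ECs under cGAMP, by 1.76 and 1.40. Whether these changes differed between PBS and cGAMP was not tested.

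**Figure D5:**
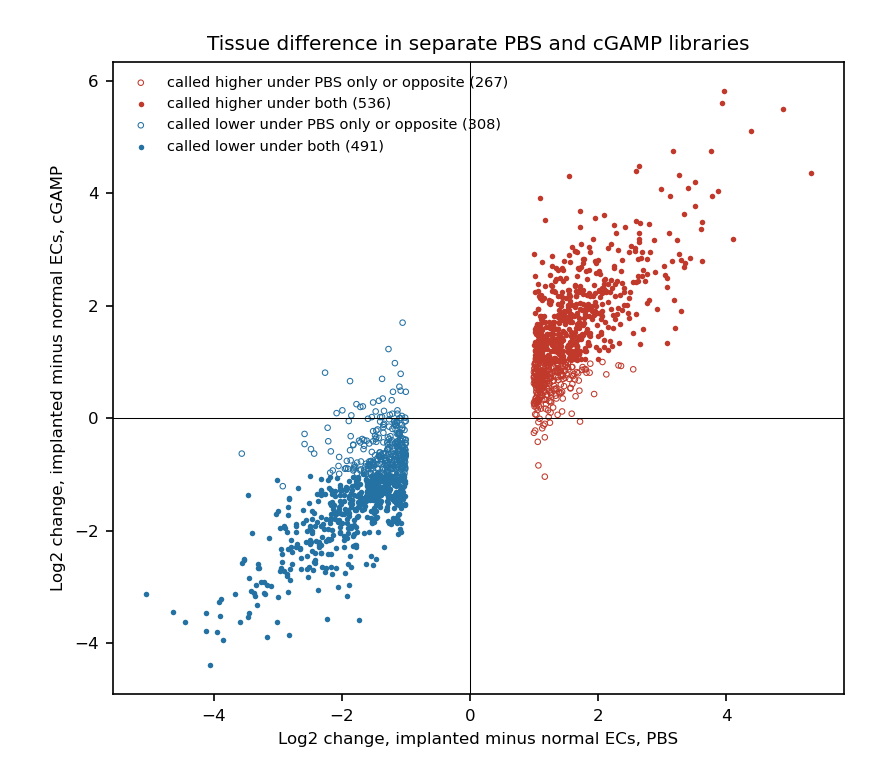
Log2 change of implanted minus normal ECs for the genes called under PBS, in the PBS libraries (x axis) and in 6 separate cGAMP libraries (y axis), with filled points called the same way in both. Of the genes called higher under PBS 536 were called higher under cGAMP, and of those called lower 491 were called lower.

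Genes that cGAMP raised in MMTV-PyMT ECs form a further list. The 6 MMTV-PyMT libraries are in neither group of the comparison of implanted with normal ECs, but all libraries share 1 estimate of the spread. In MMTV-PyMT ECs cGAMP raised 348 genes (2.49%) and lowered 10 (0.0715%). Of the 348 genes, 86 were called higher in implanted than in normal ECs under PBS (24.7%, beside 5.74% of all genes tested) and 14 lower (4.02%, beside 5.71%), and their median change was 0.47. Those 86 genes made up 10.7% of the 803 called higher. Igtp rose by 4.94 with cGAMP in MMTV-PyMT ECs and was 2.92 higher on the log2 scale in implanted than in normal ECs under PBS. For Gbp2 the values were 4.30 and 2.40, and for Cxcl10 7.73 and 3.20. Members of the same list that went the other way included Ackr1, raised by 1.51 with cGAMP and with a change of -2.83 in implanted ECs, and Sele (1.57 and -1.99). Of the 10 tested MHC class II genes 0 passed with cGAMP in either direction, with Cd74 at -0.32 and H2-Ab1 at -0.30. The share of all genes that passed there without the fold limit was not counted, and 2.49% were called higher and 0.0715% lower. Of the 10 genes that cGAMP lowered, 1 was called higher and 1 lower in implanted ECs.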

How the data were processed

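ECs of 18 samples (3 tissues, each under PBS or cGAMP, 3 libraries per group) were profiled by bulk RNA-seq. Per the labels and the methods of the study, reads were checked with FastQC, aligned with STAR 2.7 to mm10, and HTSeq was used to count them by gene. The authors deposited a table of FPKM values. Whether counting used the strand was not given, so overlapping and antisense genes, like near-identical families (H2, Serpina3, Gbp, Tgtp, casein and Hspa1 genes), are uncertain. The table holds 16248 genes, all above 0 in all 18 libraries, and 19 names that had become dates. Genes outside it were not analysed here. Columns with no matched sample numbered 0. Groups were taken from the sample titles.

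Within a gene the deposited FPKM values were whole multiples of 1 step. With summed exon lengths of GENCODE M21 (the source of coordinates, mm10), whole reads were recovered within 0.01 read for 98.54% of the values of genes matched by symbol, and the library denominators equalled median-of-ratios size factors within 0.0096%, so the deposited scaling is to a common median gene. Intervals of reads cover counting error only. No pair of replicates agreed within sampling noise (chi-square per gene 4.10 to 8.22), so each library was counted as 1 replicate.

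Values were analysed as log2(FPKM + 1) for the 13983 genes with at least 1 FPKM in at least 3 libraries (2265 were below). A model with 1 mean per group was fitted in R 4.3.3 to the 18 libraries (limma 3.58.1, lmFit and contrasts.fit, then eBayes with its trend option, 2-sided), so that all groups share 1 estimate of the spread, and p-values were adjusted over the tested genes by the Benjamini-Hochberg method. A gene was called at an adjusted p under 0.05 and a log2 change of at least 1 either way, and "rose" and "fell" are used of genes with an adjusted p under 0.05. Summaries were made with pandas 2.3.3 in Python 3.11.15, and the procedure was tested on simulated data. The gene lists and the comparison were chosen with earlier results of these data known. The text names the 15 largest rises and falls among called genes without overlap and with a mean of at least 5 FPKM in the higher group (leaving out unnamed genes and markers of other cell types), the 4 largest changes each way of each list (every member of lists with up to 12 tested), the 5 lowest adjusted p each way, and the 5 largest changes each way that also differed from MMTV-PyMT tumours. Kdr, Klf2, Cd36, Cav1 and Icam1 were chosen after their values were seen. Alternatives were a pseudocount of 0.1, no filter, a mean FPKM of at least 5, no trend, no fold limit, only the 6 libraries, quantile and total-read scaling, voom on recovered reads, a replicate block and leaving out each library.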

Additional observations from a re-analysis of the deposited data

How the results depend on the processing

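The 1602 calls (803 higher, 799 lower) became 2520 with a pseudocount of 0.1 (1284 higher, 1236 lower), 2582 with voom on recovered reads (1313 higher, 1269 lower), 6804 without the fold limit (3499 higher, 3305 lower) and 958 at a mean FPKM of at least 5, where 385 were lower. The first 2 settings shrink genes of low value less, and the last 2 remove the fold limit or test fewer genes. Leaving out 1 library gave 1542 to 1663 calls, 791 to 832 higher and 751 to 831 lower. The pseudocount of 0.1 also gave 1974 calls in place of 1025 for implanted against MMTV-PyMT ECs, 3104 in place of 1986 for the tissue difference under cGAMP, and 600 in place of 358 for cGAMP in MMTV-PyMT ECs, and the cause was not tested further. The deviations of equally numbered libraries correlated across genes at r of -0.013, 0.109 and -0.016, and those of unequally numbered ones at -0.072 to 0.091. With 3 libraries per group, these values cannot show whether equal numbers share an experiment. A replicate block gave 1598 calls (802 higher, 796 lower). Of 2310 values of the 155 named genes under the alternatives, 2292 kept their direction and side of the adjusted p threshold, 16 no longer passed, 2 newly passed and 0 reversed. The exceptions were Ptprc, Vcam1, Cdh5, Epcam, Pecam1 and Icam1. Of calls that also need the fold limit, Pgf (0.96 under total-read scaling) and Gpihbp1 (as low as 0.85) went under it. The medians of the gene lists moved by more than the spread between libraries in 98 of 540 cases. Reads of 1 kb genes below about 1 FPKM were few (1 read was 0.0843 to 0.1129 FPKM), which limits the precision of the genes that were near 0 in 1 group.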
